A study of Mus musculus with 15 samples.

Results

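The complement system of mouse kidney and lung was followed through 36 genes, out of 56748 in a table of read counts. The rule that picks them uses gene names and no measured value, although it was set with earlier results of these data known. They comprise 7 genes of the classical pathway, 6 of the lectin pathway, 4 for C3 and the alternative pathway, 7 of the terminal pathway, 5 regulators and 7 receptors. Complement is a cascade of plasma and tissue proteins that marks surfaces for removal and calls in leukocytes. The classical pathway starts when C1q binds antibody or damaged cells, the lectin pathway when collectins and ficolins bind sugars, and the alternative pathway amplifies on C3 that is already deposited. All 3 routes cleave C3 and then C5, whose fragments act on receptors of myeloid cells, and the terminal proteins C5b to C9 build a pore in membranes. Liver makes most circulating complement, while macrophages are known for C1q, and injured kidney epithelium and fibroblasts make several components locally.

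The mice were wild-type (WT) male C57Bl/6 animals, and each of the 5 groups held 3 libraries of whole-tissue RNA. WTK is kidney after vehicle, IgGK is kidney after folic acid at 200 mg/kg and then control IgG, and LepK is kidney after the same folic acid dose and then the leptin antibody LepAb, a human monoclonal IgG that neutralizes mouse leptin. IgGL and LepL are lung after bleomycin at 1.5 units/kg with control IgG or LepAb, and the antibodies were given at 10 mg/kg. Kidneys were taken at day 28 from mice that were 10 to 12 weeks old at the start, and lungs at day 14 from mice of 12 weeks. Whether the WTK mice received an antibody is not stated in the labels, no vehicle-treated lung was analysed here, and kidney and lung differ in organ, injury and day at once. The study describes the lung libraries of a group as separate mice. For kidney neither the labels nor the study's text says so, and there the p-values measure the spread between these libraries, which may be technical.

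Total counts ranged from 25913969 to 38924788 per library. The tissue markers matched the labels, with the tubule transporter *Slc22a6* at 0 in all 6 lung libraries and the surfactant gene *Sftpa1* at 0 in all 9 kidney libraries. In kidney, LepK replicate 2 stood apart in liver transcripts, with 696 normalized CPM (read counts scaled to library size, with TMM factors set within the tissue) of albumin (*Alb*) against 2.31 to 73.9 in the other 8 libraries. In lung, IgGL replicate 1 lay nearest to LepL in the sum of 6 alveolar type 2 markers (12678 normalized CPM, against 8534 and 6729 in IgGL replicates 2 and 3 and 18255 to 24931 in LepL). Results that rest on these libraries are also given without them.

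Promoter windows were read for the members from the RefSeq table of build GRCm38.p6, which held a window for 29 of the 36 genes. *C1qa*, *C2*, *C4b*, *Masp1*, *Cfb*, *Cfi* and *Itgb2* were not matched. Each window runs from 250 bases before to 50 after the transcript start, and 4 motifs were searched on both strands as exact letters. TTCNNNGAA, the site of STAT factors such as the STAT3 that the leptin receptor activates, was found in 5 of the 29 genes (17.2%) and in 9.55% of all 27025 genes with a window. TTGCNNAA, a C/EBP site, was found in 5 of the 29 (17.2%, against 12.2% of all), GAGGAAGT, a PU.1 site, in 1 (3.45%, against 3.69%), and GGG with any 3 bases and then TTCC, an NF-kB site, in 1 (3.45%, against 6.31%). The 250 bases before the start are shown for 5 chosen members, not all, whose kidney levels are described next and whose windows hold a match, which is in capitals. They are *C1qc* (PU.1 letters on the reverse strand, chr4:136892915-136893164 (minus strand)), *C3* (C/EBP letters, chr17:57228137-57228386 (minus strand)), *C3ar1* (NF-kB letters on the reverse strand, chr6:122856158-122856407 (minus strand)), *C8a* (STAT letters, chr4:104876399-104876648 (minus strand)) and *Masp2* (STAT letters, chr4:148602294-148602543 (plus strand)), all in GRCm38.p6.
C1qc: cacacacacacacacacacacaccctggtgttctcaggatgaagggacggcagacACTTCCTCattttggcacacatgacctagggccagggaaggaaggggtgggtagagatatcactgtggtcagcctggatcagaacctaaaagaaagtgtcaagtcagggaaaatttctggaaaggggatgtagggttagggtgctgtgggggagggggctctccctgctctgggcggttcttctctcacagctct
C3: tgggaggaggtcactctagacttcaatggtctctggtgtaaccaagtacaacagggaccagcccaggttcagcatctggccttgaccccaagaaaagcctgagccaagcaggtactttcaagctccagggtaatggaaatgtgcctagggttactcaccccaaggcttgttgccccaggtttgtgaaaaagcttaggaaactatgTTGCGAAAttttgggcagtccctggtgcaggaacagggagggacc
C3ar1: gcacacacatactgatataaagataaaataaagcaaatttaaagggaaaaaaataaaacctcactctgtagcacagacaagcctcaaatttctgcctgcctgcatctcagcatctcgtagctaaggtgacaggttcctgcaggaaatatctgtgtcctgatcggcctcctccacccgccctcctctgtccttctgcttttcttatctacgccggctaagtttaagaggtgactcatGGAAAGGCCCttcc
C8a: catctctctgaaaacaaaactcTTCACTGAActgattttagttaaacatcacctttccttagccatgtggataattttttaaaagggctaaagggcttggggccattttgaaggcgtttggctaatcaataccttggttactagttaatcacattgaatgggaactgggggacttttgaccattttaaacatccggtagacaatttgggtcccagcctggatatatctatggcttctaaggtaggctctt
Masp2: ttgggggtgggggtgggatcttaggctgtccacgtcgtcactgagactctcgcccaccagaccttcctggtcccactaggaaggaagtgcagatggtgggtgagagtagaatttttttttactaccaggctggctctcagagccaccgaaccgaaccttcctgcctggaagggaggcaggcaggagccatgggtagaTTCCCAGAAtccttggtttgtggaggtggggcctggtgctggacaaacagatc
A match is a run of letters and not a measured site. The STAT letters were also found in *C1ra*, which fell with the antibody in kidney, and in *C7* and *Colec11*, which were not called for the antibody in either organ. *C7* rose with injury in kidney. The C/EBP letters were also found in *C1ra*, *C1s1*, *C5ar2* and *C9*, whose windows are not shown.

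The first comparison asked which complement genes changed in the folic acid kidney under control IgG. Most of those tested were higher than in vehicle kidney, with *C3* at 19.6-fold, and a small set was lower. Of the 36 members, 33 passed the filter on low counts, and 21 rose and 5 fell in IgGK against WTK (edgeR, absolute log2 fold change over 0.5 and adjusted p under 0.05), where 21.7% of all 19593 genes tested rose and 15.6% fell. The median log2 fold change of the 33 was 2.05, against 0.04 for all genes tested. All 7 genes of the classical pathway and all 6 receptors tested rose, as did *C3*, *Cfd* and *Cfp*, *Hc*, *C6* and *C7*, *Masp1* and *Cfi*. *Masp2*, *Cfb*, *C8a*, *C8g* and *Cd55* fell. Without any single library of the 2 groups, 21 members rose and 5 fell, where 3813 to 4130 of all genes rose and 2778 to 3069 fell.

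The second comparison asked what the leptin antibody changed in the injured kidney. The antibody lowered C1q and its proteases, C3 and every receptor tested, and raised 3 genes that had fallen with injury. In LepK against IgGK 16 of the 33 fell and 3 rose (edgeR), where 5.99% of all genes tested fell and 4.38% rose, and the median log2 fold change of the 33 was -0.70, against -0.01 for all genes. The 16 comprised 6 of 7 classical genes, 6 of 6 receptors tested, *C3*, *Cfp*, *Masp1* and *Cfi*. The 3 that rose were *Masp2*, *C8a* and *C8g*. With LepK replicate 2 left out 16 fell and 4 rose, where 1271 of all genes fell and 989 rose. With any other library of the 2 groups left out 13 to 16 fell and 3 to 4 rose. Of all genes, 695 to 1036 then fell and 594 to 992 rose. This comparison and the first share the IgGK libraries, so the values of each are given side by side and are not independent.

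**Figure D1:**
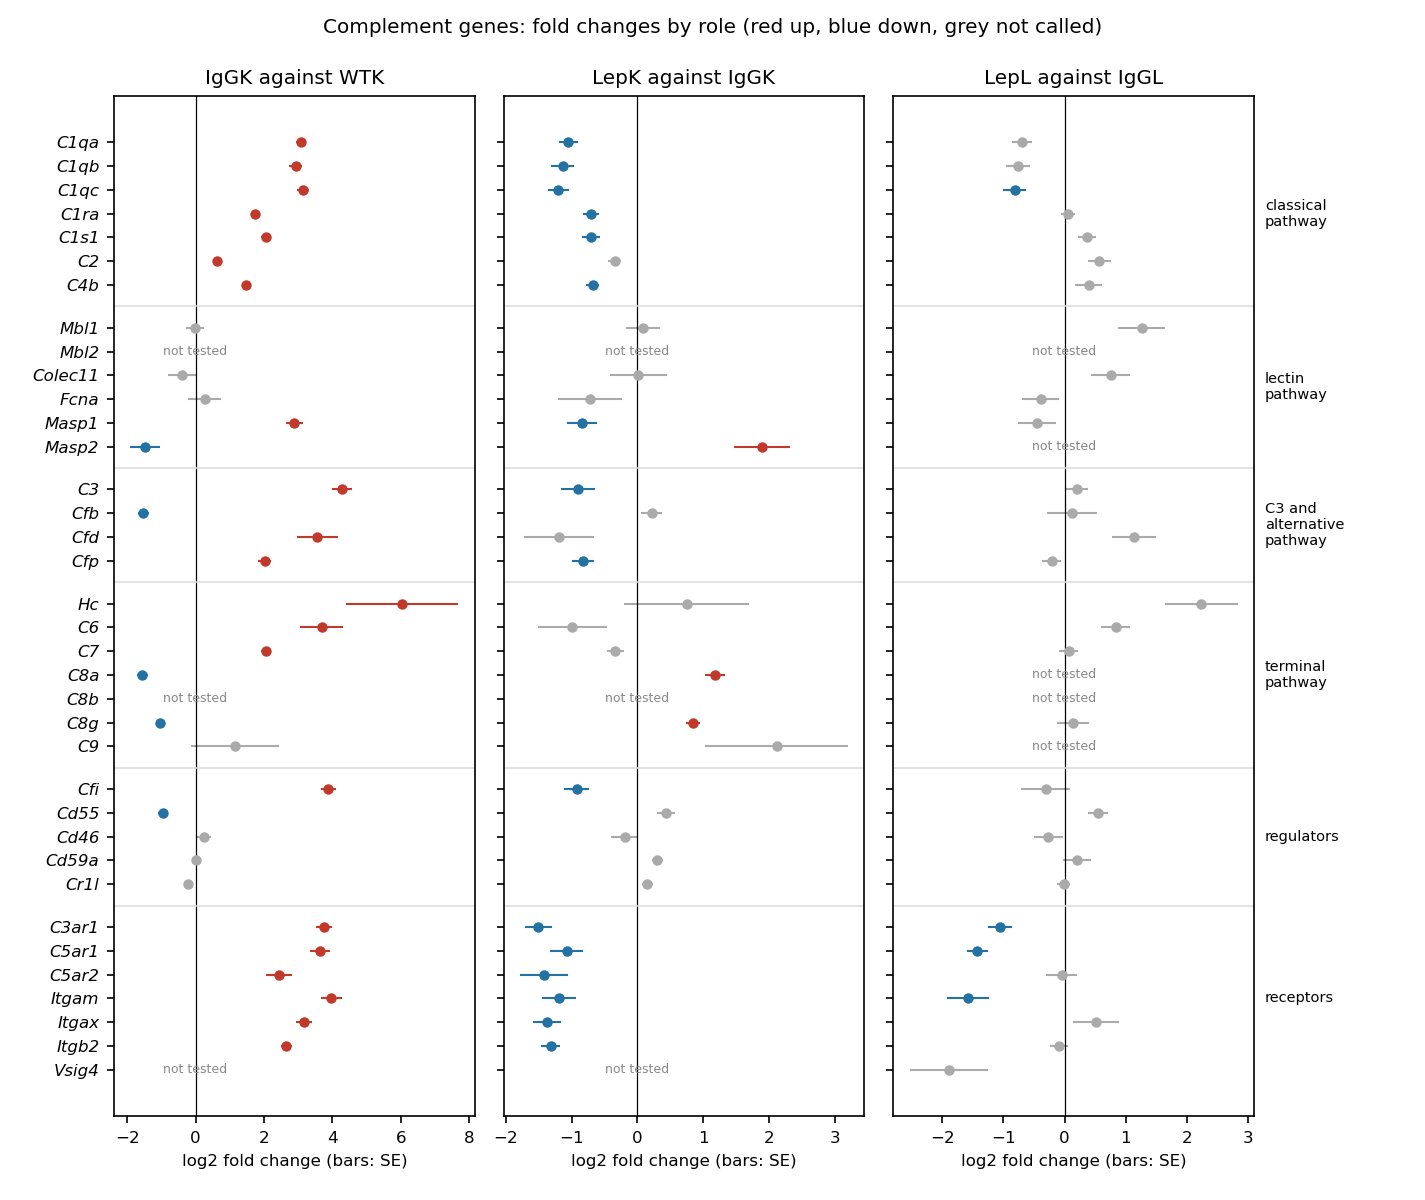
Log2 fold changes of the 36 complement genes (horizontal axis, with standard errors as bars) in IgGK against WTK, LepK against IgGK and LepL against IgGL, ordered by role, with genes that rose in red, genes that fell in blue and the rest in grey. In kidney 21 rose and 5 fell with injury and 16 fell and 3 rose with the antibody, and in lung 4 fell; each panel has its own scale.

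In the classical pathway, the 3 chains of C1q, the recognition molecule, lie side by side on chromosome 4 (*C1qa*, ENSMUSG00000036887, 136623228 to 136626114, *C1qb*, ENSMUSG00000036905, 136607440 to 136613498, and *C1qc*, ENSMUSG00000036896, 136617115 to 136620376, all on the minus strand, positions as the table gives them, for which the submitters' processing notes name GRCm39). *C1qa* had 22.6, 23.2 and 27.4 normalized CPM in WTK, 183, 245 and 195 in IgGK and 78.4, 111 and 112 in LepK. *C1qb* had 20.5, 28.3 and 31.5 in WTK, 176, 246 and 191 in IgGK and 72.0, 106 and 101 in LepK. *C1qc* had 17.9, 17.7 and 20.04 in WTK, 145, 189 and 156 in IgGK and 50.5, 81.6 and 80.8 in LepK. In each chain the LepK libraries lay between the other groups without overlap, and IgGK replicate 2 was highest and LepK replicate 1 lowest of the injured kidneys. The log2 fold changes against WTK were 3.09 (standard error, SE, 0.15, edgeR adjusted p = 2.96e-08) for *C1qa*, 2.93 for *C1qb* and 3.14 for *C1qc*. In LepK against IgGK they were -1.05 (SE 0.14, edgeR adjusted p = 0.000536), -1.14 (0.17, adjusted p = 0.000964) and -1.20 (0.16, adjusted p = 0.000476).

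*C1ra* and *C1s1* encode the proteases that C1q carries, and *C4b* and *C2* the proteins they cleave. *C1ra* had 13.8, 12.3 and 15.2 normalized CPM in WTK, 43.7, 50.6 and 43.6 in IgGK and 23.98, 32.4 and 28.3 in LepK. *C1s1* had 16.6, 16.4 and 19.9 in WTK, 69.3, 77.0 and 73.8 in IgGK and 34.0, 54.5 and 46.8 in LepK. *C4b* had 27.2, 21.4 and 27.5 in WTK, 63.9, 73.2 and 72.7 in IgGK and 42.3, 48.6 and 40.0 in LepK. The 3 genes had the same order of groups as C1q, with smaller differences and no overlap. Their log2 fold changes in LepK against IgGK lay between -0.70 and -0.68, with adjusted p from 0.00102 to 0.00369 from edgeR. *C2* rose with injury by a log2 fold change of 0.63 and was not called for the antibody (log2 fold change -0.35, adjusted p = 0.0305 from edgeR), since its change was under the fold threshold. *C1ra*, *C1s1* and *C4b* have close paralogs (*C1rb*, *C1s2* and *C4a*), so how reads were split between the copies is uncertain. *C4a* itself fell with injury, from 26.3, 14.4 and 19.3 normalized CPM in WTK to 5.17, 3.596 and 3.638 in IgGK (log2 fold change -2.28, edgeR adjusted p = 5.33e-05), the opposite of *C4b*. *C2* and *C1s1* overlap other annotated genes that a library without strand cannot separate.

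Among the proteins of the lectin pathway only *Masp1* and *Masp2*, the proteases, were called in kidney. *Masp1* had 0.996, 1.70 and 1.51 normalized CPM in WTK, 9.75, 12.2 and 9.41 in IgGK and 4.64, 7.50 and 5.35 in LepK. *Masp2* had 1.12, 0.947 and 0.757 in WTK, 0.198, 0.371 and 0.433 in IgGK and 1.38, 1.27 and 1.11 in LepK. For *Masp1* the IgGK libraries were the highest and for *Masp2* the lowest, and in both genes LepK and IgGK did not overlap. *Masp1* fell with the antibody by 0.84 on the log2 scale (SE 0.22, edgeR adjusted p = 0.0186), a call lost without IgGK replicate 2, LepK replicate 1 or LepK replicate 3 (adjusted p = 0.0857, 0.0740 and 0.0639 from edgeR). *Masp2* rose by a log2 fold change of 1.89 (SE 0.43, edgeR adjusted p = 0.00878) on 6 to 42 counts per injured kidney library, with *Tardbp* on the other strand of the same stretch, as *Rtp4* is for part of *Masp1*. The recognition molecules *Mbl1*, *Colec11* and *Fcna* had means between 0.432 and 3.39 normalized CPM in the kidney groups and were not called, and *Mbl2*, with 0 to 79 counts per library, did not pass the filter.

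*C3* (ENSMUSG00000024164, chromosome 17, 57510970 to 57535136, minus strand), on which all routes meet, had 47.5, 35.8 and 68.6 normalized CPM in WTK, 887, 1203 and 887 in IgGK and 333, 544 and 718 in LepK. LepK replicate 1 was the lowest injured library, and every LepK library lay below every IgGK library. *C3* rose with injury by a log2 fold change of 4.29 (SE 0.30, edgeR adjusted p = 2.03e-07). It fell with the antibody by 0.90 on the log2 scale (SE 0.26, edgeR adjusted p = 0.0274), a call that was lost without IgGK replicate 2 (adjusted p = 0.102), LepK replicate 1 (0.0775) or LepK replicate 2 (0.0524). *Cfp*, which encodes properdin, the stabilizer of the alternative convertase, had 8.47, 5.84 and 8.51 normalized CPM in WTK, 25.9, 37.8 and 28.7 in IgGK and 14.7, 20.4 and 17.2 in LepK. It fell with the antibody by 0.82 on the log2 scale (SE 0.17, edgeR adjusted p = 0.00538). *Cfb*, the protease subunit of that convertase, went the other way with injury, from 13.9, 11.4 and 12.3 in WTK to 4.48, 3.91 and 4.62 in IgGK, and had 5.49, 4.22 and 5.39 in LepK. Its LepK and IgGK libraries overlapped (log2 fold change 0.21, adjusted p = 0.402 from edgeR), and it was still lower than in WTK (log2 fold change -1.31, adjusted p = 6.5e-05 from edgeR). *Cfb* overlaps *Gm20547*.

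*Cfd*, which encodes factor D, the protease that fat tissue is known to secrete as adipsin, had 33.0, 2.999 and 18.9 normalized CPM in WTK, 237, 258 and 152 in IgGK and 91.3, 145 and 46.3 in LepK. WTK replicate 2 and LepK replicate 3 were the lowest of their groups. The summed level of 6 adipocyte markers was lowest in the same libraries, with 95.3, 34.9 and 101 in WTK, 211, 292 and 184 in IgGK and 147, 136 and 61.2 in LepK, and none of the markers was at 0 in kidney. Of the 6 markers, 5 rose and 1 fell with injury and 1 fell with the antibody (edgeR). *Cfd* rose with injury (log2 fold change 3.56, SE 0.59, edgeR adjusted p = 0.000233) and was not called for the antibody (log2 fold change -1.19, SE 0.53, edgeR adjusted p = 0.137). The part of fat tissue in the *Cfd* values was not tested.

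The 6 receptors tested had a median log2 fold change of 3.41 with injury and -1.34 with the antibody, against 2.06 and -0.70 for the 7 classical genes. *C3ar1* (ENSMUSG00000040552, chromosome 6, 122824097 to 122833120, minus strand), the receptor of the C3a fragment, had 1.58, 2.53 and 2.60 normalized CPM in WTK, 28.2, 34.0 and 28.4 in IgGK and 7.07, 12.4 and 12.5 in LepK. *C5ar1* (ENSMUSG00000049130, chromosome 7, 15980668 to 15993465, minus strand), the main receptor of C5a, had 0.623, 0.592 and 1.12 in WTK, 9.65, 11.02 and 8.92 in IgGK and 3.26, 4.76 and 6.05 in LepK. *C5ar2*, the second C5a receptor, which does not couple to G proteins, had 0.415, 0.276 and 0.541 in WTK, 2.21, 2.48 and 2.08 in IgGK and 0.724, 1.17 and 0.627 in LepK. No LepK library reached an IgGK library in any of them. The antibody log2 fold changes were -1.51 (SE 0.20, edgeR adjusted p = 0.000535), -1.08 (0.25, adjusted p = 0.0103) and -1.42 (0.36, adjusted p = 0.0164), and the last was lost without IgGK replicate 2, LepK replicate 1 or LepK replicate 3 (adjusted p = 0.0650, 0.0646 and 0.0602 from edgeR).

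*Itgam* and *Itgax* encode the alpha chains of complement receptors 3 and 4, which bind fragments of C3 on surfaces, and *Itgb2* the beta chain that both share. *Itgam* had 0.747, 0.789 and 1.30 normalized CPM in WTK, 12.7, 20.9 and 11.3 in IgGK and 4.93, 7.77 and 7.05 in LepK. *Itgax* had 4.86, 8.64 and 5.88 in WTK, 46.8, 73.9 and 53.2 in IgGK and 16.6, 24.2 and 26.7 in LepK. *Itgb2* had 7.97, 8.48 and 8.40 in WTK, 48.3, 61.3 and 47.4 in IgGK and 16.5, 25.8 and 20.9 in LepK. IgGK replicate 2 was the highest library for each chain, and the groups did not overlap. With the antibody they fell by 1.18, 1.37 and 1.31 on the log2 scale, with adjusted p of 0.00684, 0.00109 and 0.000176 from edgeR. *Vsig4*, the receptor of resident macrophages for C3b, had 0 to 10 counts per kidney library and did not pass the filter, and *Gm49368* overlaps *Itgam*.

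**Figure D2:**
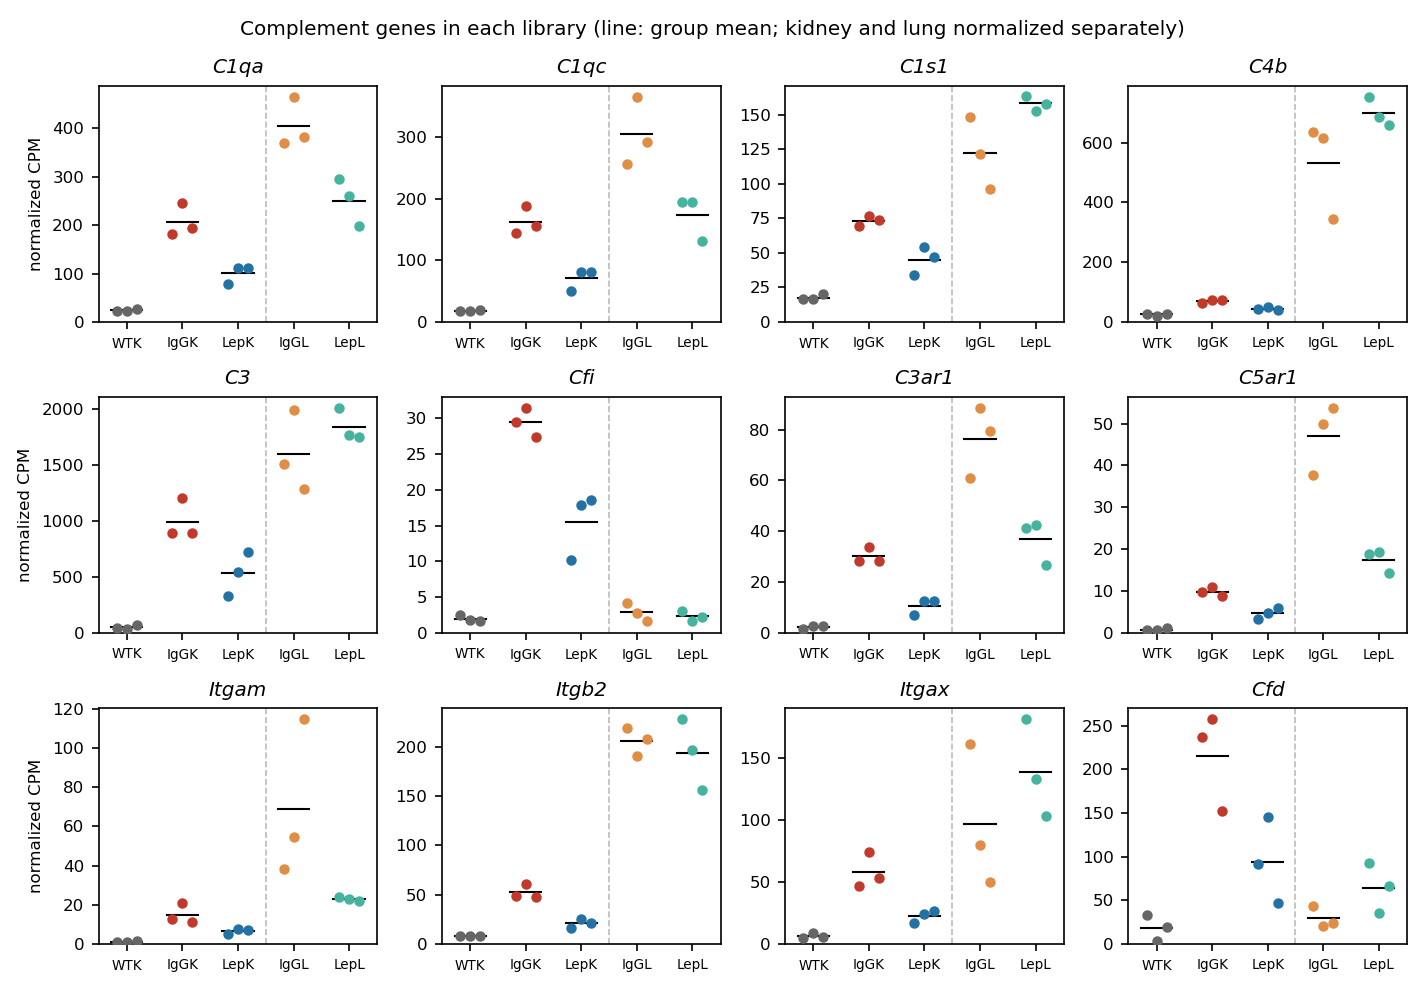
Normalized CPM (vertical axes, each from 0) of 12 complement genes in each of the 15 libraries, with points for libraries and a line for the group mean; the dashed line divides kidney from lung, which were normalized separately. In kidney the mean of every gene shown is highest in IgGK, and in lung C1qc, C3ar1, C5ar1 and Itgam fell in LepL while the other 8 genes, C1qa at an adjusted p of 0.0503 from edgeR among them, were not called.

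Markers of macrophages, neutrophils and fibroblasts moved with these genes in kidney. Those of dendritic cells and T cells did so with injury, with 1 call in each list for the antibody. The sum of 11 macrophage markers, none of which was at 0, was 212 to 240 normalized CPM in WTK, 1495 to 1843 in IgGK and 549 to 801 in LepK, and 10 of the 11 rose with injury and 8 fell with the antibody (edgeR). *Lyz2* alone had 1013 to 1283 in IgGK and 276 to 465 in LepK. *Mertk* went the other way and was not called (log2 fold change -0.41 with injury and 0.19 with the antibody). The sum of 10 neutrophil markers was 2.57 to 2.85, 17.8 to 26.4 and 7.99 to 11.6, with *Ly6g* and *Camp* at 0 in every WTK and IgGK library, and of the 5 tested 4 rose with injury and 4 fell with the antibody (edgeR). *Csf3r* alone had 12.8 to 17.2 in IgGK and 5.99 to 6.97 in LepK, and *Ngp* was at 0 in every IgGK library. The remaining neutrophil gene tested for the antibody, *Ltf*, had a log2 fold change of 1.21 and no overlap between LepK and IgGK (adjusted p = 0.102 from edgeR). The sum of 6 dendritic cell markers was 17.1 to 21.6, 43.4 to 60.6 and 32.4 to 43.9, with 6 of the 6 higher after injury and 1, *Ccr7*, lower under the antibody (edgeR). The sum of 9 fibroblast markers was 189 to 252, 1440 to 1640 and 519 to 856, with 8 of the 9 lower under the antibody (edgeR). In whole-tissue RNA, fewer cells of a type and less RNA per cell cannot be told apart, and the part of these cells in the complement values was not tested.

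Of the terminal genes, *C8a* and *C8g*, for the alpha and gamma chains of C8, had levels opposite to those of C3. *C8a* (ENSMUSG00000035031, chromosome 4, 104672876 to 104733595, minus strand) had 43.7, 50.6 and 44.4 normalized CPM in WTK, 19.8, 11.8 and 15.5 in IgGK and 38.3, 37.4 and 30.7 in LepK. *C8g* (ENSMUSG00000015083, chromosome 2, 25388663 to 25391731, minus strand) had 28.2, 27.3 and 29.8 in WTK, 15.7, 11.7 and 14.1 in IgGK and 26.2, 23.9 and 24.02 in LepK. All LepK libraries lay above all IgGK libraries and below all WTK libraries. *C8a* fell with injury by 1.56 on the log2 scale and rose with the antibody by a log2 fold change of 1.18 (SE 0.15, edgeR adjusted p = 0.000476), and *C8g* fell by 1.04 and rose by a log2 fold change of 0.84 (SE 0.11, edgeR adjusted p = 0.000404). Against WTK neither was called in LepK (log2 fold changes -0.38 and -0.20). *C8b*, the beta chain that C8 needs to bind the growing pore, had 0 to 85 counts per kidney library and did not pass the filter. *Gm17662* overlaps *C8a* and *Fbxw5* overlaps *C8g*.

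The sum of 8 proximal tubule markers had the same order of groups, with 15636 to 16300 normalized CPM in WTK, 4070 to 5248 in IgGK and 7183 to 9051 in LepK, and 8 of the 8 fell with injury and 6 rose with the antibody (edgeR). *Cd55*, the membrane regulator that breaks up convertases, also fell with injury, from 21.4, 24.7 and 22.3 in WTK to 13.8, 10.5 and 10.9 in IgGK, and had 18.6, 13.97 and 15.01 in LepK. It lay apart from IgGK in LepK but below the fold threshold (log2 fold change 0.44, adjusted p = 0.0375 from edgeR). The part of the tubule in these values was not tested.

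**Figure D3:**
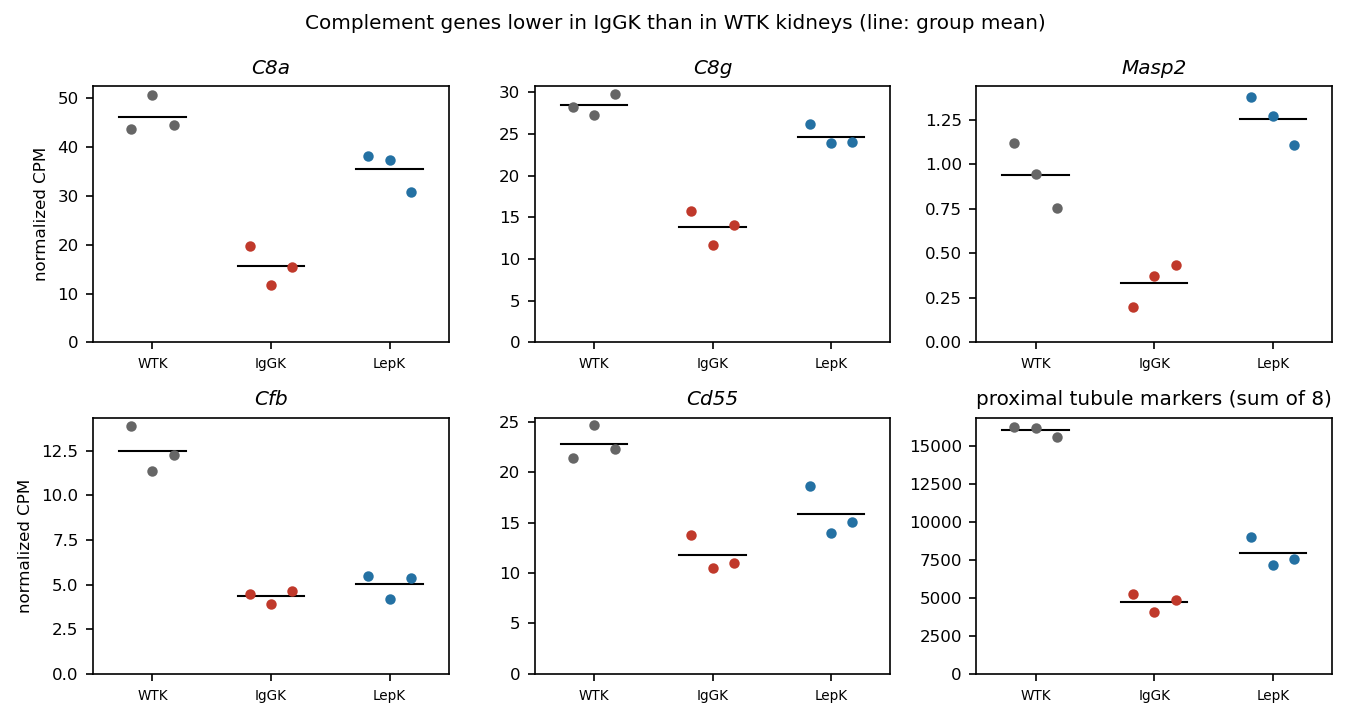
Normalized CPM (vertical axes, each from 0) in the 9 kidney libraries of the 5 complement genes that fell in IgGK against WTK, and of the sum of 8 proximal tubule markers, with a line for each group mean. C8a, C8g and Masp2 rose again in LepK, Cfb stayed between 3.91 and 5.49 normalized CPM in both injured groups, and the marker sum was lowest in IgGK.

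*C7* and *C6*, which add to C5b in the assembly of the pore, rose with injury. *C7* had 3.24, 4.10 and 4.18 normalized CPM in WTK, 17.4, 15.1 and 15.5 in IgGK and 13.9, 11.8 and 12.2 in LepK, and was not called for the antibody (log2 fold change -0.34, adjusted p = 0.0855 from edgeR). *C6* had 0.457, 0 and 0.721 in WTK, 5.01, 6.74 and 3.73 in IgGK and 1.71, 3.99 and 2.10 in LepK, with overlap between the injured groups (log2 fold change -0.99, adjusted p = 0.220 from edgeR). Against vehicle both were still higher in LepK, by log2 fold changes of 1.72 and 2.70 (adjusted p = 4.52e-06 and 0.00526 from edgeR).

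*Hc* (ENSMUSG00000026874, chromosome 2, 34873343 to 34951450, minus strand) encodes C5. It had 0, 2 and 0 counts in WTK, 59, 75 and 64 in IgGK and 16, 277 and 4 in LepK. IgGK held 198 counts against 2 in WTK, a ratio of 76.4 after scaling (exact 95% interval 20.9 to 635, for counting error only). Its fitted value in the plot of fold changes by role rests on those 2 counts and is no bound. LepK replicate 2 was far above, and LepK replicates 1 and 3 below, every IgGK library. With all libraries *Hc* was not called for the antibody (log2 fold change 0.75, adjusted p = 0.632 from edgeR), and without LepK replicate 2 it was lower than in IgGK (log2 fold change -2.52, adjusted p = 0.0190 from edgeR). *C9*, *C8b* and *Mbl2*, further complement genes of liver, had 126, 85 and 79 counts in LepK replicate 2, against 0 to 15, 0 to 21 and 0 to 14 in the other 8 kidney libraries. The sum of 8 hepatocyte markers was 1127 normalized CPM in LepK replicate 2 and 198 to 288 in the others, and 2 of the 8 rose with injury and none was called for the antibody (edgeR). *C9* was not called in either kidney comparison with IgGK (log2 fold change 1.15 against WTK and 2.11 for the antibody, adjusted p = 0.479 and 0.200 from edgeR). The source of these transcripts was not tested.

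**Figure D4:**
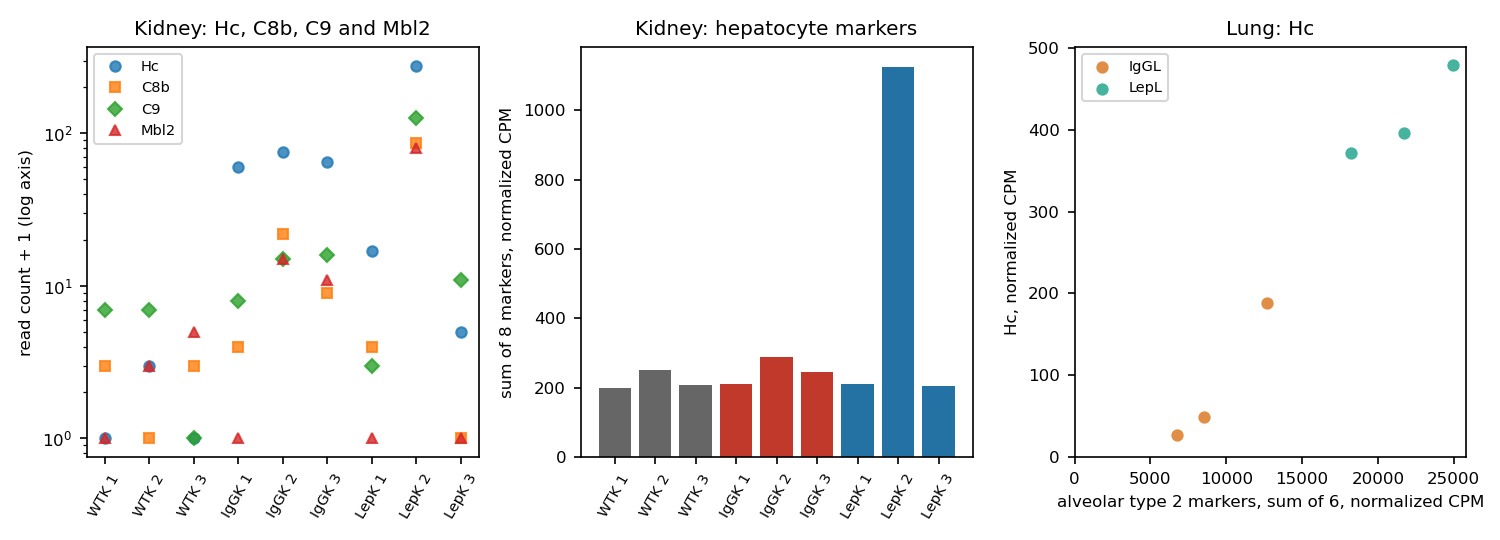
Left, read counts plus 1 (log axis) of Hc, C8b, C9 and Mbl2 in the 9 kidney libraries; middle, the sum of 8 hepatocyte markers in the same libraries (normalized CPM); right, Hc against the sum of 6 alveolar type 2 markers in the 6 lung libraries (normalized CPM on both axes). LepK replicate 2 is the highest kidney library in the left and middle panels, and in lung the 3 LepL libraries are highest on both axes.

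*Cfi*, the plasma protease that inactivates C3b and C4b, was the regulator with the largest change. It had 2.45, 1.85 and 1.69 normalized CPM in WTK, 29.4, 31.5 and 27.3 in IgGK and 10.2, 17.9 and 18.6 in LepK. The 3 groups were apart, and *Cfi* rose with injury by a log2 fold change of 3.88 and fell with the antibody by 0.92 on the log2 scale (SE 0.19, edgeR adjusted p = 0.00476). *Cd46*, *Cd59a* and *Cr1l*, regulators on cell membranes, were not called in either comparison, with antibody log2 fold changes of -0.20, 0.30 and 0.15. For *Cd59a* every LepK library lay above every IgGK library (adjusted p = 0.0253 from edgeR), but the change was under the fold threshold. *Cd59a* has a close paralog, *Cd59b*, and 5 annotated genes overlap *Cd46*.

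Against vehicle kidney, 19 of the 33 members were still higher and 2 were lower in LepK (edgeR), where 15.2% of all genes tested were higher and 7.30% lower, with a median log2 fold change of 1.35 against 0.03 for all genes. *C3* was 10.5-fold and *Cfi* 7.79-fold above WTK, *C5ar1* 5.94-fold, *C3ar1* 4.74-fold and *C1qa* 4.11-fold. *C5ar2* and *C2* were no longer called (log2 fold changes 1.02 and 0.28, adjusted p = 0.0629 and 0.0519 from edgeR). *Cfb* and *Cd55* were lower, the latter by 0.52 on the log2 scale, a call lost without WTK replicate 2, LepK replicate 2 or LepK replicate 3. This comparison shares libraries with both of the others.

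In lung the question was whether the antibody had a like effect after bleomycin. The members that fell in LepL were the C1q chain gene *C1qc* and the receptors *C3ar1*, *C5ar1* and *Itgam*, and the other genes tested, *C3* and the remaining C1 and C4 genes included, were not called. Of 31 members tested, 4 fell and 0 rose in LepL against IgGL (edgeR), where 2.36% of all 19617 genes tested fell and 1.78% rose, and the median log2 fold change of the 31 was 0.06, against 0.00 for all genes. At an unadjusted p under 0.05 from edgeR, 7 members were lower and 8 higher, where 5357 of all 19617 genes had such a p. DESeq2 called 7 members lower and 5 higher, where it called 1102 and 1236 of all genes. The 4 calls were made on all 6 libraries and without IgGL replicate 1 (7 lower and 7 higher, when 1602 and 1937 of all genes were called). Leaving out IgGL replicate 2 or 3 or any LepL library gave 0 calls of members. In those fits 0 to 18 of all genes were called higher and 0 to 4 lower. At an unadjusted p under 0.05 (edgeR), 7 to 8 members were then lower and 4 to 6 higher, where 3401 to 4717 of all genes had such a p.

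*C3ar1* had 61.0, 88.5 and 79.4 normalized CPM in IgGL and 41.4, 42.3 and 26.6 in LepL. *C5ar1* had 37.8, 49.8 and 53.7 in IgGL and 18.9, 19.4 and 14.3 in LepL. *Itgam* had 38.0, 54.4 and 115 in IgGL and 23.7, 23.1 and 22.1 in LepL. All LepL libraries lay below all IgGL libraries for each receptor, and IgGL replicate 3 held the highest *Itgam* and *C5ar1*. The log2 fold changes were -1.05 (SE 0.20), -1.43 (0.17) and -1.59 (0.34), with adjusted p of 0.0354, 0.0327 and 0.0429 from edgeR. The sum of 10 neutrophil markers was 245, 267 and 622 normalized CPM in IgGL and 130, 157 and 124 in LepL, with 5 of the 10 called lower (edgeR) and IgGL replicate 3 again the highest. Of 11 macrophage markers 2 were called lower (edgeR), while their sum, mostly *Lyz2*, which alveolar type 2 cells also express, was 3226 to 6131 in IgGL and 7615 to 7905 in LepL. The sum of 9 fibroblast markers was 7652 to 8736 in IgGL and 3505 to 4774 in LepL, with 5 of the 9 called lower and 0 higher (edgeR). The part of these cells was not tested.

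*C1qc* had 257, 366 and 293 normalized CPM in IgGL and 195, 195 and 131 in LepL, which is -0.81 on the log2 scale (SE 0.19, edgeR adjusted p = 0.0471). *C1qa* had 369, 466 and 383 in IgGL and 295, 260 and 198 in LepL. *C1qb* had 353, 468 and 396 in IgGL and 274, 272 and 168 in LepL. LepL replicate 3 was the lowest library for each chain, IgGL replicate 2 the highest, and the groups did not overlap. *C1qa* and *C1qb* narrowly missed the threshold (log2 fold changes -0.69 and -0.77, adjusted p = 0.0503 and 0.0587 from edgeR). *Vsig4* had 1.36, 6.38 and 4.82 in IgGL and 0.359, 1.28 and 1.69 in LepL, with overlap and an adjusted p of 0.104 from edgeR.

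*C3* had 1505, 1988 and 1281 normalized CPM in IgGL and 2005, 1768 and 1743 in LepL, with overlap (log2 fold change 0.21, SE 0.18, edgeR adjusted p = 0.485). *C4b* had 636, 616 and 346 in IgGL and 754, 686 and 660 in LepL (log2 fold change 0.39, adjusted p = 0.273 from edgeR). *C1s1* had 148, 121 and 96.6 in IgGL and 163, 153 and 158 in LepL (log2 fold change 0.37, adjusted p = 0.148 from edgeR). For *C4b* and *C1s1* the LepL libraries lay above the IgGL libraries, of which replicate 3 was the lowest. *Itgb2*, with 156 to 228 in the 6 lung libraries, and *Itgax*, with 161, 80.1 and 49.8 in IgGL and 182, 133 and 103 in LepL, were not called.

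*Hc* had 188, 49.4 and 26.6 normalized CPM in IgGL and 372, 397 and 479 in LepL. Every LepL library was higher than every IgGL library, and the log2 fold change of 2.24 (SE 0.60) was not called (adjusted p = 0.0641 from edgeR). It was called without IgGL replicate 1 (log2 fold change 3.45, adjusted p = 0.000302 from edgeR), the IgGL library with the highest *Hc*. The alveolar type 2 marker sum had the same order of all 6 libraries, from 6729 in IgGL replicate 3 to 24931 in LepL replicate 3, and 3 of its 6 genes rose (edgeR). *C6* had 31.9, 20.2 and 15.7 in IgGL and 35.7, 37.8 and 47.6 in LepL, also with no overlap and no call (log2 fold change 0.84, adjusted p = 0.0735 from edgeR). *Mbl1*, *Colec11*, *Cd55* and *C2* were likewise higher in each LepL library than in each IgGL library without a call, with log2 fold changes of 1.26, 0.76, 0.55 and 0.57. *C8a*, *C8b*, *C9*, *Mbl2* and *Masp2* had at most 7 counts in a lung library and did not pass the filter. The part of alveolar cells in these values was not tested.

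The effect of the antibody was then compared between the organs in a fit of the 12 injured libraries, which share none between the kidney and lung contrasts. Among 35 members tested, 8 differed, each with a more negative antibody effect in kidney than in lung (edgeR, adjusted p under 0.05), where 7.12% of all 21488 genes tested differed in either direction. No member had a called difference of the opposite sign. At an unadjusted p under 0.05 (edgeR) there was 1 such member, *C8g* (0.73, edgeR adjusted p = 0.0569), and 12 of the first kind, where 5468 of all genes tested had such a p. The difference was -1.20 for *Itgb2* (SE 0.23, edgeR adjusted p = 0.0154), -1.05 for *C1s1* (0.22, adjusted p = 0.0207), -0.73 for *C1ra* (0.17, adjusted p = 0.0256) and -1.04 for *C4b* (0.25, adjusted p = 0.0311). It was -1.79 for *C6*, -2.30 for *Cfd*, -0.89 for *C2* and -1.86 for *Itgax*, with adjusted p from 0.0320 to 0.0397 from edgeR. The *Itgb2* call held with each of the 12 libraries left out, and the other 7 calls held in 2 to 9 of those 12 fits. Without any 1 of the IgGK or LepL libraries, LepK replicate 1 or 3, or IgGL replicate 2, 1 to 5 members differed. Of all genes, 141 to 376 then had a positive called difference and 195 to 531 a negative one. Without IgGL replicate 1, IgGL replicate 3 or LepK replicate 2, 6 to 11 members differed. Of all genes, 450 to 1853 then had a positive called difference and 568 to 1910 a negative one. For the members lower in lung the difference was not called, at -0.36 for *C1qc*, -0.42 for *C3ar1*, 0.38 for *C5ar1* and 0.43 for *Itgam*, with standard errors from 0.28 to 0.48. *C3* missed the threshold (difference -1.08, SE 0.33, edgeR adjusted p = 0.0625). Organ, injury and day cannot be told apart in these differences.

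**Figure D5:**
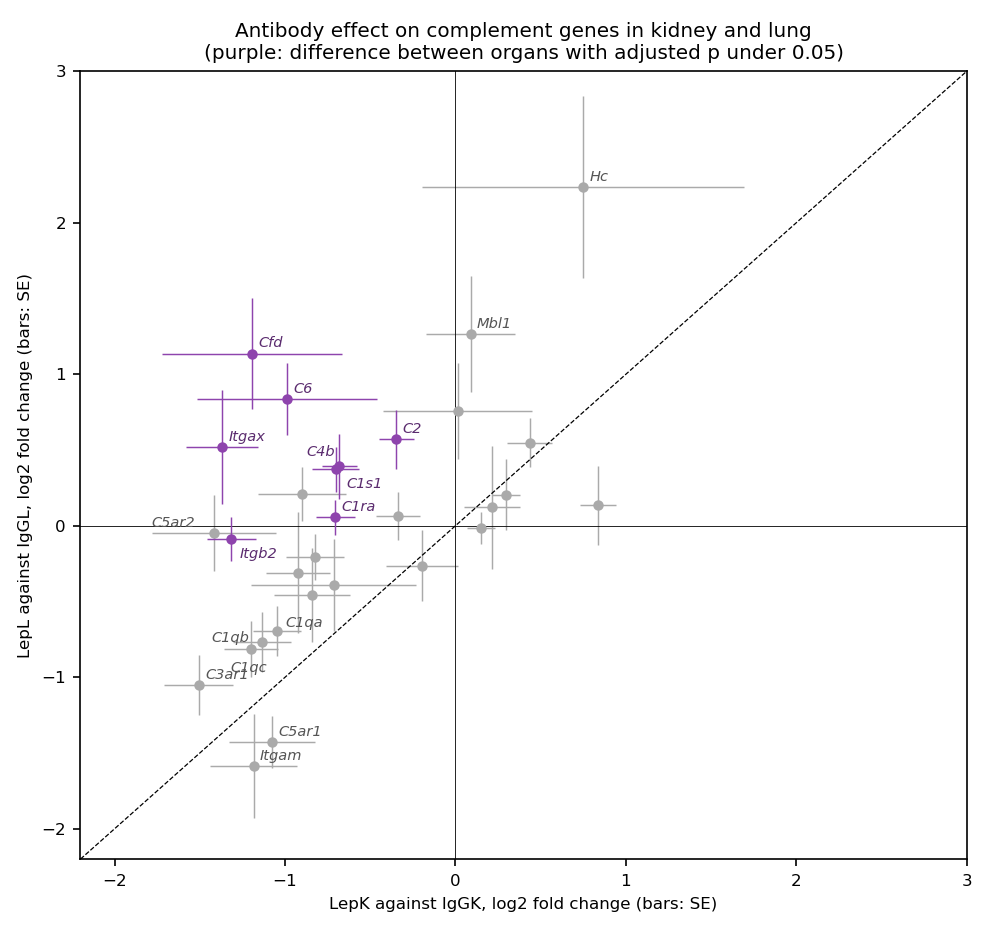
Log2 fold change of each complement gene tested in both organs under the antibody, LepK against IgGK on the horizontal axis and LepL against IgGL on the vertical axis, with standard errors as bars and a dashed line of equal effects. The 8 genes in purple, from C2 at -0.35 in kidney and 0.57 in lung to Itgb2 at -1.31 and -0.09, lie above the line with a called difference between organs, while C5ar1 and Itgam lie just below it.

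Levels can be compared between genes only per length, for which counts of all 15 libraries were scaled together and divided by the gene length in kilobases (normalized CPM per kb, mean ± SD, n = 3). In IgGK the highest levels were *Cfd* (250 ± 64.8), *C1qa* (213 ± 33.2), *C3* (206 ± 37.2) and *C1qb* (201 ± 35.3), which did not differ beyond their spread, followed by *C1qc* (90.3 ± 12.4). In WTK the order began with *C1qb* (26.3 ± 5.52), *C1qa* (25.1 ± 2.69), *Cd59a* (25.1 ± 2.61), *Cfd* (21.2 ± 17.4) and *C8g* (20.4 ± 0.938), with *C3* at 10.5 ± 3.46. Vehicle kidney thus held more of the C8 gamma chain gene *C8g* than of *C3* per length, and the injured kidney 9.92 ± 1.50 of *C8g*. Without strand, reads of *C8g* cannot be separated from those of the overlapping *Fbxw5*. In IgGL *C1qa* (351 ± 45.2), *C1qb* (335 ± 47.5) and *C3* (279 ± 63.9) were the highest and overlapped, and in LepL *C3* was the highest, at 324 ± 24.4, above *C1qa* at 219 ± 41.8. *C4b* (84.3 ± 26.1 in IgGL, 13.1 ± 0.949 in IgGK) and *C7* (51.6 ± 12.4 and 6.39 ± 0.506) were higher in injured lung than in injured kidney, and *Cfd* (28.7 ± 12.4 and 250 ± 64.8) and *C8g* (1.37 ± 0.0881 and 9.92 ± 1.50) were lower.

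A further list of 23 complement genes that are not members was read beside them. In kidney 17 were tested, 9 rose and 3 fell with injury, and 2 fell with the antibody and 0 rose (edgeR). Of all genes tested, 21.7% rose and 15.6% fell with injury, and 5.99% fell and 4.38% rose with the antibody. At an unadjusted p under 0.05 from edgeR, 4 of the 17 were lower and 2 higher with the antibody, where 6441 of all 19593 genes had such a p. *Serping1*, for the C1 inhibitor, had 53.1, 46.5 and 60.7 normalized CPM in WTK, 237, 264 and 234 in IgGK and 112, 151 and 134 in LepK (antibody log2 fold change -0.89, adjusted p = 0.000419 from edgeR). Its injured groups did not overlap. In lung 19 were tested, 0 rose and 1 fell (2.36% of all genes tested fell). At an unadjusted p under 0.05 (edgeR), 3 were higher and 4 lower, where 5357 of all 19617 genes had such a p. The gene that fell was the pattern recognition gene *Ptx3*, with 10.1, 8.21 and 11.1 normalized CPM in IgGL and 4.44, 5.46 and 2.74 in LepL (log2 fold change -1.22, adjusted p = 0.0454 from edgeR).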

How the data were processed

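RNA of 9 kidney and 6 lung libraries was extracted, selected for poly(A) and sequenced without strand, per the labels. The deposited table, credited by the study to Novogene, holds read counts per gene as the authors left them, without normalization. Its FPKM values and the authors' comparison columns (group means, log2 fold changes, p-values) were not used. The submitters' processing notes name GRCm39 (mm39) and DESeq2. The aligner, counter and annotation are not given in the sources used here. A description line that names another table disagreed with the titles and was not used. No replicate pair was a repeat of the same counts (chi-square over genes, 7.15 to 98.6 for each gene on average). At the total counts reported, 1 count equals 0.0257 to 0.0386 CPM, and intervals cover counting error only.

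Counts were filtered with filterByExpr (minimum count 10, minimum total 15), scaled by TMM and fitted with edgeR 4.0.16 quasi-likelihood models in R 4.3.3, on the 9 kidney and the 6 lung libraries apart, and on the 12 injured libraries for the difference between organs (6, 4 and 8 residual degrees of freedom). P-values were adjusted over all genes tested (Benjamini-Hochberg), and calls needed an absolute log2 fold change over 0.5 and an adjusted p under 0.05, or the adjusted p alone for the difference between organs. Standard errors were derived from each log2 fold change and its F statistic. A gene of the further complement list is not reported here by name. The members, gene lists and tests were chosen with earlier results of these data known. Members called for the antibody in an organ with a mean of at least 1 normalized CPM in a group are given by library, and *Hc*, *Cfb*, *Cfd*, *C6*, *C7* and *Cd55* and the lung values of uncalled members were chosen after their values were seen. Alternatives were RLE and library-size scaling, DESeq2 1.42.0, other low-count filters, a fit of only the groups compared, a replicate block, other fold thresholds and leaving out each library.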

Additional observations from a re-analysis of the deposited data

Results flagged for a closer look

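For 8 members the antibody effect differed between kidney and lung in the interaction test of edgeR. The log2 difference, kidney minus lung, was -0.73 for *C1ra*, -1.05 for *C1s1*, -0.89 for *C2*, -1.04 for *C4b*, -2.30 for *Cfd*, -1.79 for *C6*, -1.86 for *Itgax* and -1.20 for *Itgb2*. For *Itgb2* and *C1ra* the lung value was near 0, at -0.09 and 0.06, while *C1s1*, *C2*, *C4b*, *Cfd*, *C6* and *Itgax* had positive lung log2 fold changes that were not called. Of the 12 fits without a library, the call held in 12 for *Itgb2*, 9 for *C1s1*, 6 for *C1ra*, 4 each for *C4b*, *Cfd* and *C6*, 3 for *C2* and 2 for *Itgax*. The adipocyte marker sum moved with *Cfd* in both organs, at 184 to 292 in IgGK, 61.2 to 147 in LepK, 30.8 to 49.8 in IgGL and 65.7 to 83.7 normalized CPM in LepL, and its part in the difference was not tested. Organ, injury and day of euthanasia differ together and cannot be told apart.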

How the results depend on the processing

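No called member changed direction under the alternatives run, and of 1187 values of called members under them 1082 kept the call. Of 1282 values of members called neither with all libraries nor under the alternative, 58 changed sign. *Hc* was uncalled for the antibody in kidney with all libraries and called in the other direction without LepK replicate 2, and ranged from -2.52 to 1.31 with 1 library left out. With library sizes as the only scaling, the all-gene median became 0.48 for IgGK over WTK and -0.19 for LepK over IgGK, and that of the members 2.49 and -0.88, with 1.61 for LepK over WTK. It left 1 member lower in LepK against WTK, where 512 of all genes were lower. A mean of at least 1 CPM gave a median of 2.27 in IgGK against WTK. Without a fold threshold 5 members rose in LepK against IgGK, where 2150 of all genes rose. With the threshold at a log2 fold change of 1, 9 members fell there and 1 was lower in LepK against WTK. Of all genes, 428 and 302 were then lower in these comparisons. In lung DESeq2 called 5 members higher and 7 lower, and edgeR without the low-count filter 6 higher and 7 lower. DESeq2 called 1236 of all 19617 genes higher and 1102 lower there, and edgeR without that filter 1515 and 1173 of 35071. With 1 library left out, members called in lung ranged from 0 to 7 in each direction, members lower in LepK against WTK from 1 to 2, members that differed between organs from 1 to 11, and the medians from -0.91 (without LepK replicate 2) to -0.60 in LepK against IgGK and from 1.07 (without LepK replicate 2) to 1.53 in LepK against WTK. Over all genes, the same fits called 0 to 1937 higher and 0 to 1602 lower in lung. They called 1135 to 1766 genes lower in LepK against WTK. Between organs, 141 to 1853 genes had a positive called difference and 195 to 1910 a negative one. Fewer than 3 members differed between organs without IgGK replicate 2, LepK replicate 1, IgGL replicate 2 or LepL replicate 3. There 141 to 157 of all genes had a positive called difference and 195 to 282 a negative one.

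Replicate numbers are shared by the labels only. With the number as a replicate block, 0 members were called lower in lung and 7 differed between organs, while the kidney counts were unchanged. Of all 19617 genes tested in lung, 1 was then called higher and 3 lower. Of all 21488 genes tested between organs, 468 had a positive called difference and 538 a negative one. Same-numbered libraries correlated at -0.14 to 0.30 and not each above 0.1 in any comparison, so the block was not used. At these depths *Mbl2*, *C8b* and *Vsig4* in kidney, and *C8a*, *C8b*, *C9*, *Mbl2* and *Masp2* in lung, could not be compared.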
